A study of Canis lupus familiaris with 10 samples.

Results

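The regions described here were chosen by their peak calls: after touching or overlapping peaks of 10 ATAC-seq libraries were merged, a region was kept where all 5 libraries of the canine lymphoma cell line CLBL-1 (C2 to C6) had a peak by an overlap of at least 1 bp and none of the 5 libraries of the canine lymphoma cell line 17-71 (B1, B2, B3, B4 and B6) had one. This left 4019 of 59420 merged regions (6.76%), called CLBL-1-only regions here. Whether a library had a peak was thus the value used to choose them, and the contrast between the lines is given as a description without a test. A site without a call is a site that did not reach the caller's limit, and it can still be accessible.

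CLBL-1 was collected on day 2, as 2 control libraries, C2 and C3, and 3 that had received 100 nM C220, named C4, C5 and C6. The line 17-71 was collected on day 4, as 3 control libraries, B1, B2 and B3, and 2 that had received 100 nM C220, named B4 and B6. C220, named PR220 in the sample labels, is a small-molecule inhibitor of PRMT5, and no label gives another treatment or a genetic change. Both lines are cultures grown from canine B-cell lymphomas, the study describes the experiments as done in biological triplicate without tying single libraries to cultures, and cell line and day of collection cannot be told apart.

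ATAC-seq uses a transposase that cuts and tags DNA where nucleosomes and other proteins leave it free, so that accessible promoters, enhancers and boundary elements give dense stretches of fragments that are called as peaks. Promoters of genes that every cell uses are open in most cell types, whereas distal enhancers differ more between cell types. PRMT5, the target of C220, puts symmetric dimethyl groups on arginines of histones and of many other proteins, and some of its histone marks accompany gene silencing.

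The caller gave each peak a fold enrichment, the fragment pileup over the local background, and a −log10 p. The lists carry no read depth, which is therefore unknown here, and lists with more peaks leave fewer sites without a call. The CLBL-1 lists held 23822 (C2), 23318 (C3), 27026 (C4), 27247 (C5) and 23082 (C6) peaks. The 17-71 lists held 44378 (B1), 33358 (B2), 30943 (B3), 22076 (B4) and 27646 (B6) peaks. B1 stood apart with the longest list. Every list reached down to a −log10 p of about 5.00.

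CLBL-1-only regions were about 1 in 5 of the sites that CLBL-1 had open in every library. Of 18339 regions called in all 5 CLBL-1 libraries, 4019 (21.9%) had no 17-71 peak and 9179 were called in each of the 10 libraries. The mirror set, called in all 5 libraries of 17-71 and in none of CLBL-1, held 6499 of 17601 regions (36.9%). The order of the lines depended on the lists used. It was the same and wider from the control libraries alone (4876 regions only in CLBL-1 and 12715 only in 17-71), and it held with each library left out in turn. It was nearly even or turned in other settings. From the 20000 peaks of largest −log10 p of each library, 4809 regions were called only in CLBL-1 and 4799 only in 17-71. From the 20000 of largest fold enrichment the counts were 4144 and 4043. With a −log10 p of at least 10 they were 2361 and 2134, with a fold enrichment of at least 4 they were 2464 and 1727, and from the C220 libraries alone 8132 and 7644. The counts from control or C220 libraries alone rest on unequal numbers of libraries of the lines. The CLBL-1-only regions covered 5.44 Mb and lay on all 39 chromosomes of the files, the 38 autosomes and X.

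**Figure D1:**
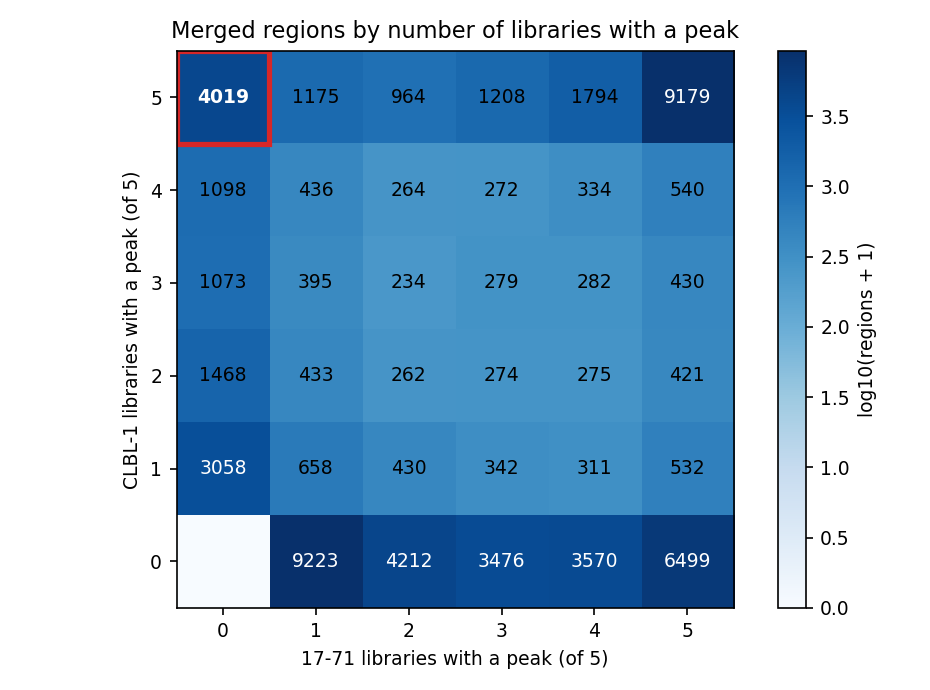
Number of merged regions by how many CLBL-1 libraries (vertical axis, 0 to 5) and how many 17-71 libraries (horizontal axis, 0 to 5) had a peak, with the shade on a log10 scale. The red frame marks the 4019 regions called in all 5 CLBL-1 libraries and in no 17-71 library, against 9179 called in all 10.

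On the 17-71 side, the border of the set depended mostly on the B1 list. Of 1175 regions with a peak in all 5 CLBL-1 libraries and in a single 17-71 library, that library was B1 in 980, B2 in 71, B3 in 57, B6 in 39 and B4 in 28. Without B1 the set would have held 5019 regions. On the other side of the border, 1098 regions had a peak in 4 CLBL-1 libraries and in none of 17-71, and the library without a call was C6 in 331, C3 in 326, C2 in 282, C5 in 93 and C4 in 66. The libraries with the shorter lists (C2, C3 and C6) were thus those most often without the call.

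Just inside the border were chr21:7166870-7167812, chr13:28952532-28953209 and chr17:53587472-53588720, which stayed in by a −log10 p of about 5.00 in C2, in C3 and in C2, respectively. At the first of these the fold enrichment was 3.16 in C2 and 4.55 in C3, against 4.23, 4.14 and 4.27 in C4, C5 and C6. Just outside was chr9:50244630-50246155, with fold enrichments of 6.17, 5.94, 6.04, 5.67 and 5.81 in C2 to C6 and a peak of 3.41-fold (−log10 p of 6.06) in B1. B1 alone kept out chr11:68674191-68675335 and chr13:44111330-44112189 too, by peaks of 3.24-fold and 2.99-fold. Among regions with 4 CLBL-1 calls, chr11:73848513-73849008 had 9.52-fold, 9.33-fold, 9.71-fold and 9.25-fold enrichment in C2 to C5 and no call in C6. chrX:44809019-44809542 had no call in C6 either, and chr16:1212417-1213128 had none in C3. Regions close to the rule therefore included sites as strong in CLBL-1 as many inside it.

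CLBL-1-only regions were weaker and narrower than the sites shared by all 10 libraries. Both classes were set by peak calls, and a call depends on signal strength. The differences in strength and width given here and below are therefore not independent of the rule and are a description only. Their median fold enrichment was 4.44 in C2, 4.09 in C3, 4.29 in C4, 4.04 in C5 and 4.49 in C6, and that of the 9179 shared regions was 5.12, 4.71, 4.95, 4.71 and 5.06 in the same order. In the ranking of each library's own list by −log10 p, the median CLBL-1-only region stood at percentile 49.0 in C2, 48.4 in C3, 53.9 in C4, 54.1 in C5 and 48.4 in C6, near the middle of the list. The median shared region stood between percentile 74.5 and 78.7. In all 5 libraries the medians of the shared regions were the higher ones. The mirror set of 17-71 showed the same order. In B1 its median fold enrichment was 4.86 and its median peak width 1015 bp, against 5.14 and 1225 bp at shared regions. B2, B3, B4 and B6 had the shared regions higher in both measures too.

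**Figure D2:**
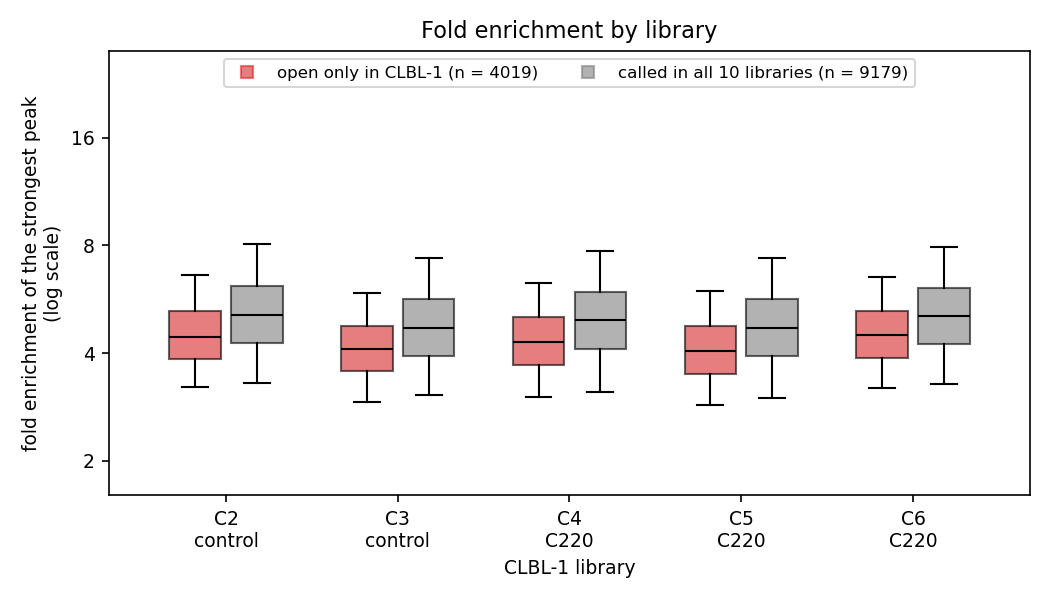
Fold enrichment of the strongest peak (log scale) in each of the 5 CLBL-1 libraries for the 4019 CLBL-1-only regions (red) and the 9179 regions called in all 10 libraries (grey). Boxes span the quartiles with the median as a line and whiskers reach the 5th and 95th percentiles; the red medians, 4.04 to 4.49, lie below the grey ones, 4.71 to 5.12, in every library.

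Each region's weakest −log10 p over the 5 libraries had a median of 8.23 in CLBL-1-only regions, 16.5 in shared regions and 7.33 in the mirror set of 17-71. It was at least 10 in 1485 CLBL-1-only regions (36.9%), at least 20 in 417 (10.4%) and at least 50 in 33 (0.821%). The median width was 1206 bp, with a range from 378 to 5476 bp, and that of shared regions, which merge the peaks of 10 libraries in place of 5, was 1669 bp. Within a library the strongest peak had a median width of 872 bp (C2), 960 bp (C3), 962 bp (C4), 970 bp (C5) and 894 bp (C6) at CLBL-1-only regions, against 1106, 1160, 1214, 1220 and 1119 bp at shared ones. Broad merged regions of 3 kb or more made up 2.09% of CLBL-1-only regions (84) and 11.5% of shared regions. Width and fold enrichment were only loosely related across the 4019 regions (Spearman's rho = -0.13, over regions that share libraries, so no p is given).

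The libraries placed these peaks at nearly the same sites. In 3965 regions (98.7%) each of the 5 libraries had exactly 1 peak, and the midpoints of the 5 peaks spanned a median of 161 bp. Across regions, Pearson's r of log2 fold enrichment between pairs of CLBL-1 libraries was between 0.79 and 0.85, and between 0.89 and 0.92 over shared regions. The highest of these over CLBL-1-only regions was that of C4 and C5, the libraries with the longest CLBL-1 lists. These values describe how alike the libraries are over regions, which are not independent replicates.

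The strongest CLBL-1-only region by its weakest −log10 p was chr5:85380176-85380823, 648 bp long, with fold enrichments of 11.9 (C2), 11.1 (C3), 12.3 (C4), 12.3 (C5) and 11.97 (C6). Its −log10 p ranged from 143 in C6 to 341 in C5, and the nearest 17-71 peak was 5827 bp away. All 5 libraries ranked it above percentile 99.6 of their lists, and control and C220 libraries lay close together. The next was chr4:39522840-39524254, with 6.87-fold, 5.81-fold, 6.30-fold, 5.46-fold and 6.34-fold enrichment in C2 to C6 and a weakest −log10 p of 93.9. chr10:21181046-21182463 followed with 90.6, chr13:37524560-37525871 with 84.8 and chr15:12182366-12183734 with 82.7. The last of these stood 240274 bp from any 17-71 peak, whereas the other four had a 17-71 peak within 13191 bp.

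The largest median fold enrichment, 13.2, was at the short region chr8:13459035-13459468 (434 bp), with 12.1 in C2, 11.004 in C3, 13.6 in C4, 13.2 in C5 and 13.5 in C6. After the region on chromosome 5 came a pair on chromosome 38 that lay within the same gap of 17-71 peaks. chr38:4019272-4019751 had 12.1-fold, 10.8-fold, 11.3-fold, 10.96-fold and 11.1-fold enrichment in C2 to C6. chr38:3959673-3960334 had 10.0-fold, 8.87-fold, 9.69-fold, 9.92-fold and 8.87-fold enrichment. On the X chromosome, chrX:1088439-1089246 had a median of 9.67-fold, with a 17-71 peak 1498 bp away. The regions of highest fold enrichment were thus between 434 and 808 bp long, narrower than the median CLBL-1-only region.

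The widest regions were weaker. The widest, chr5:6174317-6179792 (5476 bp), had 3.22-fold, 2.72-fold, 2.85-fold, 2.66-fold and 3.22-fold enrichment in C2 to C6, and its strongest peak was 5459 bp wide in C3 but 2052 to 2191 bp wide in the other 4 libraries. chr26:27388560-27393631 (5072 bp) had a strongest peak of 4387 bp in C3 and 4380 bp in C6, and of 971 to 1121 bp in C2, C4 and C5. chr35:677632-682652, chr11:7452841-7457639 and chr17:24825906-24830688 were between 4783 and 5021 bp wide. The widths of the control and C220 libraries overlapped in 4 of these 5 regions and not on chromosome 35, where the strongest peak measured 1179 bp in C2 and 2078 bp in C3, against 4852, 4819 and 2223 bp in C4, C5 and C6.

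Many CLBL-1-only regions had a 17-71 peak in their neighbourhood. The nearest region with any 17-71 peak, shared regions included, was a median of 10989 bp away, and 47.6% of CLBL-1-only regions had such a neighbour within 10 kb but 2.14% within 1 kb. The nearest region called in all 10 libraries was a median of 54095 bp away, with 14.6% within 10 kb, and the nearest other CLBL-1-only region 74453 bp. The 1912 regions under 10 kb from a 17-71 peak had a median fold enrichment of 4.11, the 1881 regions from 10 to 100 kb had 4.37 and the 226 regions at 100 kb or more had 4.38. The weakest −log10 p had medians of 8.45, 7.92 and 8.44 in the same order, so isolated regions were not the weak ones.

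Most of them stood alone. With a limit of 10 kb between neighbours, 3451 were single, 235 groups held 2, 26 held 3 and 5 held 4. The groups of 4 were at chr8:72832002-72850551, chr29:35981500-36001756, chr5:71121692-71145950, chr11:33561715-33586820 and chr10:48139171-48167937, the first of them 18550 bp long. In windows of 1 Mb, 1465 of the 2331 windows with any region held a CLBL-1-only region, 240 held at least 5 and 9 held at least 10.

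The window with the most, chr26:27000001-28000000, held 17 CLBL-1-only regions among its 70 merged regions, with 2 regions called only in 17-71 and 4 in all 10 libraries. The study's region annotation places a region of this window, chr26:27132874-27133350, inside PRAME, a gene of a tumour antigen family. This region had a peak in no CLBL-1 library and in a single 17-71 library. All 17 CLBL-1-only regions lay on its far side, from 31.4 to 610 kb after it. In the gene order of RefSeq (assembly UU_Cfam_GSD_1.0, used here for names and neighbours only), PRAME stands among immunoglobulin V segments, with 9 V segments among the 25 entries before it and 3 V segments and then 5 C regions among the 25 entries after it, followed by RSPH14, GNAZ, RAB36 and BCR. Chromosome 26 of that assembly has 39 V segments and 5 C regions. A locus with V segments and C regions on this chromosome is the immunoglobulin lambda light chain locus, which B cells rearrange by joining a V to a J segment ahead of a C region. Which of the 17 regions cover V segments, C regions or stretches between them was not analysed here.

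The strongest of the 17 by fold enrichment was chr26:27399703-27401063, with 7.41 in C2, 8.16 in C3, 6.41 in C4, 7.24 in C5 and 9.04 in C6. chr26:27353411-27354547 had 6.59, 7.88, 7.44, 6.42 and 6.53 in the same order, and chr26:27523066-27524412 had 6.87, 6.76, 6.77, 6.35 and 8.003. At these 3 regions the values of the control and C220 libraries overlapped. The weakest by fold enrichment, chr26:27429452-27431900, had a median of 2.86 and a weakest −log10 p of 5.14. In the 580106 bp that the 17 span, 16 of 49 merged regions had a 17-71 peak, 5 of them in all 5 17-71 libraries, so the stretch was not without calls in 17-71.

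**Figure D3:**
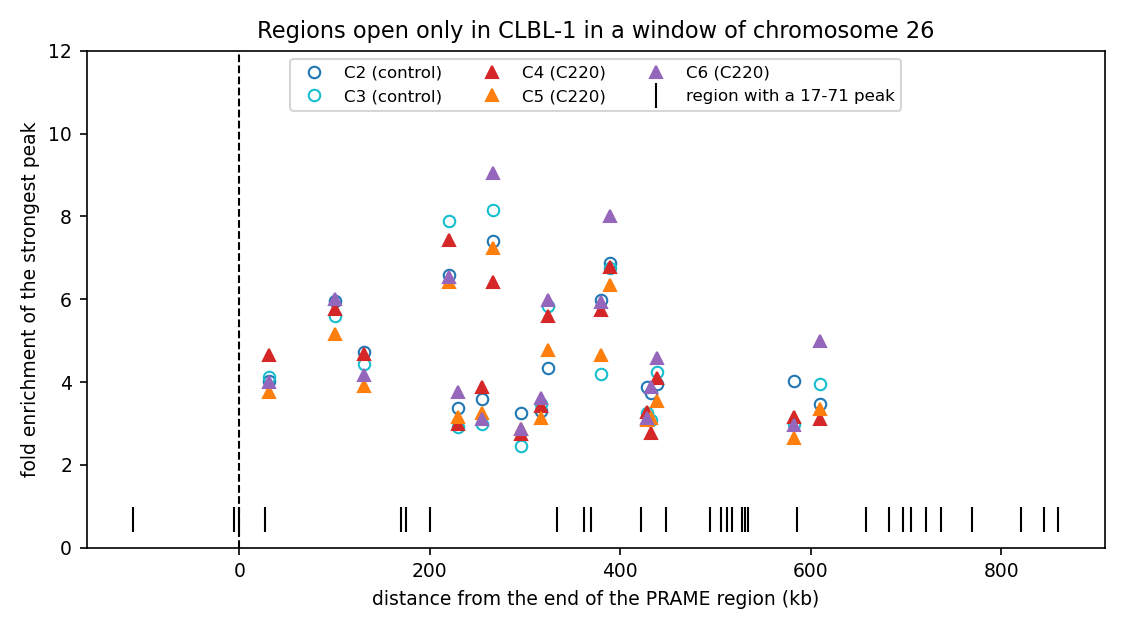
Fold enrichment (vertical axis) of the 17 CLBL-1-only regions of the chromosome 26 window in each CLBL-1 library, by distance in kb from the end of the region inside PRAME (dashed line at 0). Open circles are control and filled triangles C220 libraries, black ticks mark the 30 regions of the window with a 17-71 peak, and the CLBL-1-only regions start 31.4 kb after PRAME.

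On chromosome 20, some of the regions lay in a gap in 17-71. The window chr20:30000001-31000000 held 13 CLBL-1-only regions among 28 merged regions, of which 5 had a 17-71 peak and none was called only in 17-71. It overlaps a stretch of 526071 bp without any 17-71 peak, chr20:29745036-30271106, that held 7 CLBL-1-only regions, 6 of them in the window, and the other 7 regions of the window lay beyond its end. The strongest in the stretch, chr20:29784815-29785820, had 6.80-fold, 6.82-fold, 6.93-fold, 7.11-fold and 6.71-fold enrichment in C2 to C6, the closest agreement among the 7. The next by fold enrichment, chr20:30086303-30088295, had 5.03, 5.59, 5.41, 5.40 and 5.40.

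Stretches of at least 500 kb between 17-71 peaks numbered 348, of which 91 held a CLBL-1-only region and 6 held at least 5. Stretches of that length without a CLBL-1 peak numbered 747, of which 452 held a region called only in 17-71 and 70 held at least 5. The lists of the lines are of unequal length and the stretches were not counted in lists of equal length, so no comparison of the lines is read from these counts. Copy number and accessibility cannot be told apart from peak lists in such stretches. Besides the stretch on chromosome 20, chr15:11920153-12424008 held 7 CLBL-1-only regions, 6 were in chr16:54949225-58276387, 6 in chr10:32486243-33046487, 5 in chr4:10959081-11513903 and 5 in chr32:28471933-28989301. The one on chromosome 15 contained chr15:12182366-12183734, among the 5 strongest, with 6.65-fold, 6.03-fold, 6.38-fold, 5.97-fold and 6.55-fold enrichment in C2 to C6, and 6 weaker regions within the same 146410 bp. The one on chromosome 16 was 3327163 bp long, but its 6 regions stood within 348434 bp of each other. Every merged region of these 6 stretches had its calls in CLBL-1 by construction, 7 to 11 in each stretch.

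Of the other windows with many CLBL-1-only regions, chr10:48000001-49000000 held 13, chr6:31000001-32000000 held 12, and chr17:37000001-38000000 and chr38:21000001-22000000 held 11 each. On chromosome 10, a region assigned upstream of SOCS5, which encodes a suppressor of cytokine signalling, had peaks in 2 CLBL-1 and 4 17-71 libraries and stood 108068 bp from the nearest of the 13. On chromosome 38, chr38:21610750-21615331 overlaps the start of CD48, which encodes a lymphocyte surface receptor of the SLAM family, and all 10 libraries had a peak there. A CLBL-1-only region, chr38:21602885-21603831, stood 6918 bp from it, with fold enrichments of 5.59 (C2), 4.18 (C3), 5.14 (C4), 5.01 (C5) and 4.98 (C6). In RefSeq order, CD48 is flanked by further SLAM family genes, CD244, LY9 and SLAMF7 on the side towards KLHDC9, and SLAMF1, CD84 and SLAMF6 on the other. In the same window a region at the start of B4GALT3, a galactosyltransferase gene, had a peak in 4 CLBL-1 libraries and in none of 17-71, and so missed the set by a single library.

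By chromosome, CLBL-1-only regions were between 14.1% and 32.8% of the regions called in all 5 CLBL-1 libraries, with a median of 22.6%. Chromosome 36 (60 of 183 regions, 32.8%), chromosome 29 (71 of 218, 32.6%) and chromosome 19 (72 of 229, 31.4%) were highest. Chromosome 35 (29 of 205, 14.1%) and chromosome 14 (34 of 223, 15.2%) were lowest. Chromosome 14 was also where 17-71 had its highest share of regions of its own, 247 of 448 (55.1%). Over the 39 chromosomes the shares of the lines were weakly related (Spearman's rho = 0.23, a description over chromosomes of unequal region numbers).

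**Figure D4:**
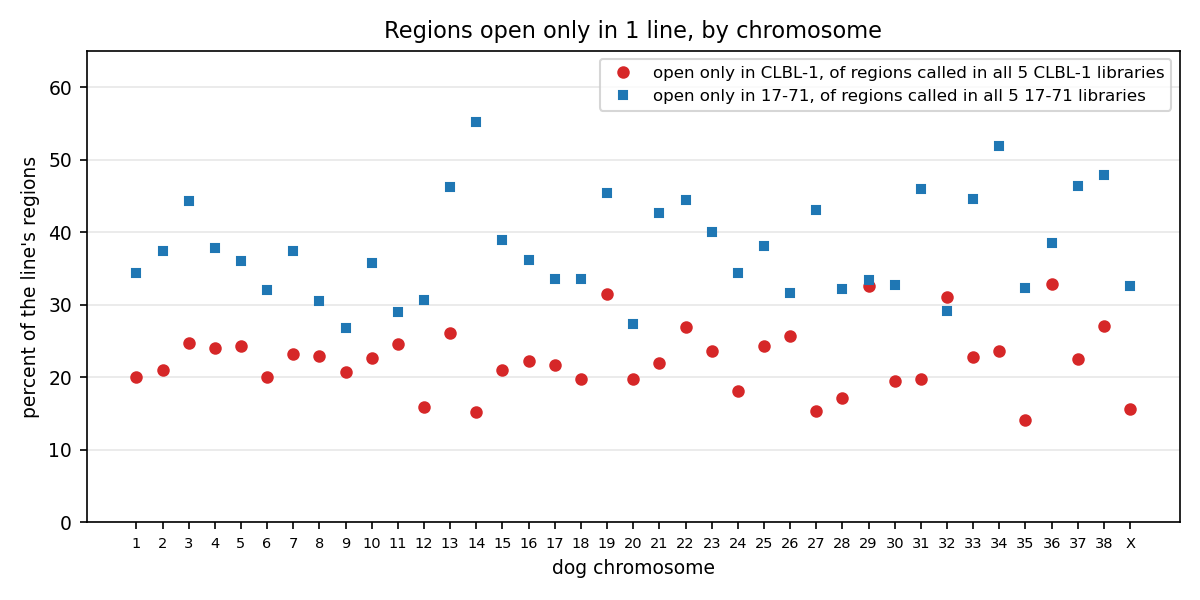
Share (percent) of regions open only in CLBL-1 among those called in all 5 CLBL-1 libraries (red circles), and open only in 17-71 among those called in all 5 17-71 libraries (blue squares), for each dog chromosome. The red shares run from 14.1% on chromosome 35 to 32.8% on chromosome 36, and chromosome 14 combines a low red share (15.2%) with the highest blue one (55.1%).

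Gene names were taken only from pairings in the study's region annotation, of which a shortened table ordered by treatment was read, so they are a lookup and not a sample of the 4019 regions. A gene identifier was found there for 23 CLBL-1-only regions, 11 of them with a symbol or family name and 12 without. Of the lists of marker genes drawn up for this work, none of 45 B cell, 32 lymphoma, 12 PRMT, 19 T cell and 10 myeloid genes was paired with a CLBL-1-only region. The rows read held 5 of the lymphoma genes, 2 of the myeloid genes and none of the PRMT and T cell genes, so that for the last 2 lists no pairing could have been found. They held only 1 of the B cell genes, CCR7, whose start region was called in each of the 10 libraries, so the B-cell label of CLBL-1 could not be checked against its markers. The myeloid marker genes CD163 and CEBPB had regions without a CLBL-1 peak, called in 5 and 4 of the 17-71 libraries. The lymphoma genes in these rows were MYC, the cyclin genes CCND1 and CCND2, the receptor gene KIT and the survival gene MCL1, and the regions of the last 4 had a peak in 0 or 1 CLBL-1 library and in 4 or 5 of 17-71. These values hold for the regions that the rows read paired with the myeloid and lymphoma genes. Nothing is said here of other regions of the same genes.

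A pair of U1 snRNA genes on chromosome 9, which encode the RNA of the spliceosome subunit that recognises 5′ splice sites, each lay wholly inside a CLBL-1-only region. chr9:33271242-33272475 had fold enrichments of 6.28 (C2), 6.37 (C3), 5.68 (C4), 5.56 (C5) and 6.24 (C6). chr9:33264926-33266630 had 5.88, 5.60, 5.33, 5.12 and 5.36 in the same order. At both regions every C220 library was below both controls. Neither difference passed the treatment test described below (log2 differences of -0.12 and -0.13, limma adjusted p = 0.955 and 0.947). U1 genes have near-identical copies elsewhere in the genome, so the placing of reads among copies is uncertain. On the same chromosome, a region inside CDK5RAP3, a gene of the UFM1 protein modification pathway, had 6.27-fold, 6.06-fold, 6.32-fold, 5.94-fold and 7.34-fold enrichment.

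Protein-coding genes with a CLBL-1-only region at or before their start included SLC16A11, a member of the monocarboxylate transporter family, with 3.91 (C2), 3.96 (C3), 4.78 (C4), 5.22 (C5) and 5.89 (C6) at chr5:32065416-32066583. Here every C220 library was above both controls, but the difference did not pass the test described next (log2 difference of 0.42, SE 0.11, limma adjusted p = 0.801). NFIC, a transcription factor gene of the nuclear factor I family, had values of 5.05 and 4.80 in the controls and 5.34, 5.45 and 5.53 in the C220 libraries at a region upstream of it. This difference did not pass either (log2 difference of 0.14, SE 0.09, limma adjusted p = 0.940). TIMP4, which encodes an inhibitor of metalloproteinases, had a region over its start with 4.30, 3.47, 3.59, 2.86 and 3.64 in C2 to C6. SELE, the gene of the adhesion molecule E-selectin, had a region inside it with 5.36, 4.47, 3.78, 4.01 and 5.26. FRRS1, XKR4 and HTRA4 were the other protein-coding genes named, with median fold enrichments of 5.49, 4.75 and 3.26, and a region before the microRNA gene cfa-mir-99a-1 had a median of 3.83.

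Around MYC, the proto-oncogene that drives growth in many lymphomas, a region at the 3′ end of the gene (chr13:25204781-25208119) had a peak in 0 of 5 CLBL-1 and 4 of 5 17-71 libraries. Within 500 kb of it lay 14 CLBL-1-only regions, 7 on each side and none closer than 141347 bp, with median fold enrichments from 2.54 to 4.99, beside 8 regions called only in 17-71. Regions called in all 10 libraries, a class to which the MYC region does not belong, had a median of 2 CLBL-1-only regions within that distance, a 90th percentile of 6 and at most 17. The paper names a duplication of MYC in CLBL-1 as known. Copy number and accessibility cannot be told apart from peak lists, and the cause of the count around MYC was not tested.

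The treatment comparison asked whether fold enrichment or peak width differed between the C220 and control libraries of CLBL-1, a contrast that the rule did not use. Since the rule and the fit both required a call in every CLBL-1 library, sites that lost or gained their call with C220 were not among the regions compared, which limits how large a difference could be found. It was fitted with limma over all 18339 regions called in the 5 CLBL-1 libraries, on log2 values centred on each library's median, with Benjamini-Hochberg adjusted p under 0.1 as the threshold. No CLBL-1-only region passed it for fold enrichment (0 of 4019), against 1 of 18339 regions overall (0.00545%). The smallest adjusted p among the 4019 was 0.798. The median log2 difference was -0.0049 over CLBL-1-only regions and -0.0039 over all regions, with quartiles of -0.09 and 0.08 over the former, and no CLBL-1-only region differed by 2-fold or more.

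Without adjustment, 279 CLBL-1-only regions (6.94%) had a limma p under 0.05, against 5.74% of all regions, 125 of them higher and 154 lower in C220. Every C220 library was above both controls in 403 CLBL-1-only regions (10.0%), against 9.63% of all regions. Every C220 library was below both in 462 (11.5%), against 10.6% of all regions. These shares were near those of all regions.

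The CLBL-1-only regions with the smallest p for a higher value were chr5:41806689-41807489, chr16:36257370-36259518 and chr23:46922963-46924192. The first had fold enrichments of 3.98 and 3.77 in the controls and 5.85, 5.68 and 5.31 in the C220 libraries, without overlap (log2 difference 0.53, SE 0.10, limma adjusted p = 0.798). Those with the smallest p for a lower value were chr7:39943850-39945042, chr20:49107075-49107584 and chr5:71132925-71134308. The region on chromosome 7 had 7.40 and 5.40 in the controls and 3.83, 4.34 and 4.02 in the C220 libraries (log2 difference -0.64, SE 0.13, limma adjusted p = 0.798). The last of the lower ones belongs to the group of 4 on chromosome 5. None of the 6 passed the threshold.

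For peak width, few CLBL-1-only regions passed the threshold, at a share near that of all regions. Of the 4019 CLBL-1-only regions, 14 (0.348%) passed the threshold for width, against 77 of 18339 regions overall (0.42%), with 9 wider and 5 narrower in C220. The count was 250 (6.22%) at an unadjusted limma p under 0.05, against 4.95% of all regions. Every C220 width was above both controls in 436 CLBL-1-only regions (10.8%), against 9.5% of all regions, and below both in 500 (12.4%), against 11.7%. The number of calls changed with the libraries fitted: without C5 0 regions passed, without C4 2 did and without C6 10, and 0, 1 and 5 of the 14 were among these. The log2 difference had the same sign in all 14 regions with each of the 5 libraries left out. This could not have come out otherwise, since every C220 width there was above both controls or below both. Without C2 or C3 a single control library was left, so no count of regions passing is given here for those fits.

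By p, the first of the widened regions was chr20:55475694-55478586, where the strongest peak measured 752 bp in C2 and 857 bp in C3, against 2803, 2833 and 2759 bp in C4, C5 and C6 (log2 difference 1.74, SE 0.08, limma adjusted p = 0.0146). Both controls had 2 separate peaks in this region and each C220 library had 1, and with the widths added up (1378 bp in C2 and 1362 bp in C3) the log2 difference was 0.97 (limma adjusted p = 0.0549). The largest log2 difference was that of chr2:21630805-21633200, which went from 363 and 389 bp to 1777, 1822 and 2296 bp (log2 difference 2.32, SE 0.18, limma adjusted p = 0.035). chr6:14594518-14598320 went from 1683 and 1572 bp to 3667, 3755 and 3207 bp.

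By p, the first of the narrowed regions was chr11:61066769-61069716, with 2811 and 2940 bp in the controls and 1296, 1321 and 1247 bp in the C220 libraries (log2 difference -1.22, SE 0.07, limma adjusted p = 0.0182). chr17:7917294-7919573 went from 2064 and 2205 bp to 643, 633 and 654 bp, but C4 and C5 had 2 peaks there, and with the widths added up (1084 bp in C4 and 1117 bp in C5) it did not pass (limma adjusted p = 0.310). chr20:30145971-30148537, one of the 7 regions in the chromosome 20 stretch without 17-71 peaks, went from 2158 and 1974 bp to 809, 655 and 577 bp (log2 difference -1.67, SE 0.16, limma adjusted p = 0.0533). None of the 14 passed the threshold for fold enrichment (limma adjusted p from 0.818 to 0.999), and its mean log2 value was higher with C220 in 1 of the 9 that widened and lower in none of the 5 that narrowed. When the widths of all peaks of a library in a region were added up, 10 CLBL-1-only regions passed the threshold, all of them among the 14.

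**Figure D5:**
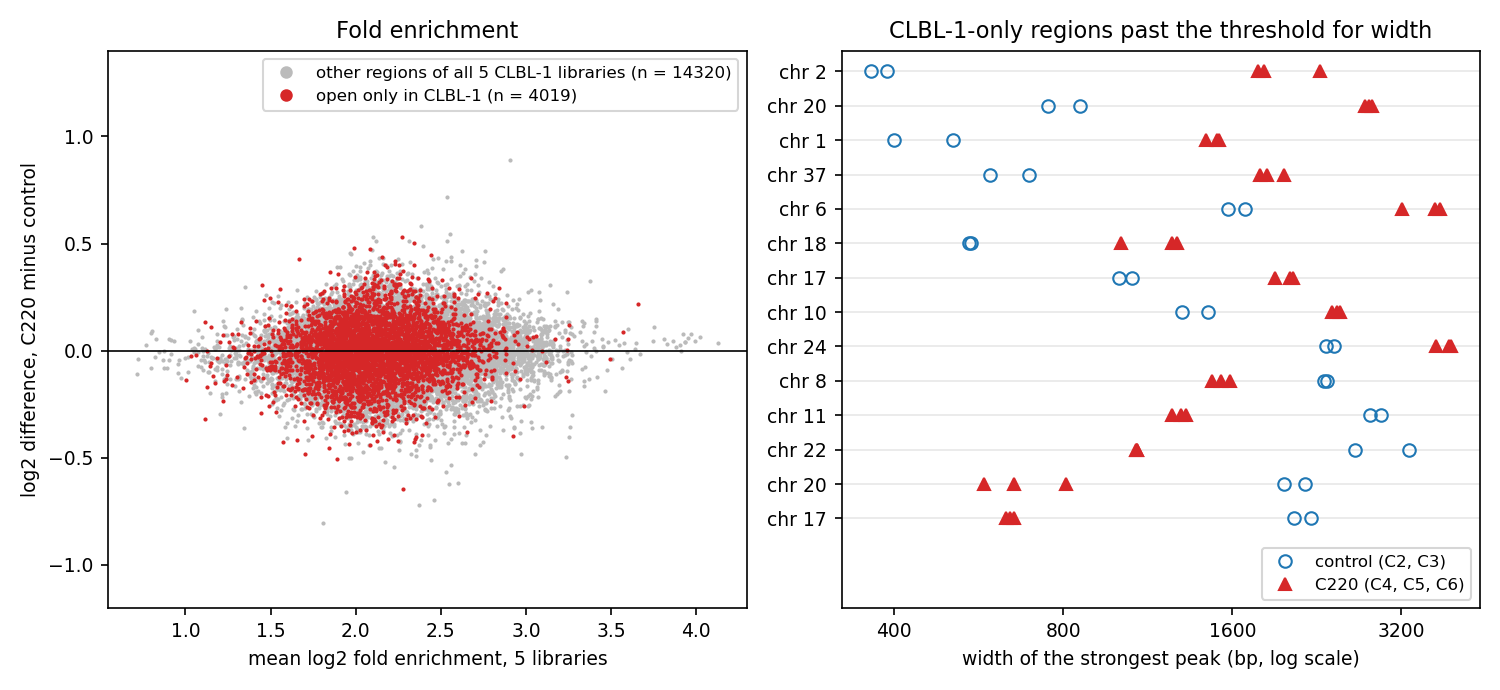
Left, log2 difference in fold enrichment (C220 minus control) against mean log2 fold enrichment for 4019 CLBL-1-only regions (red) and the other 14320 regions of all 5 CLBL-1 libraries (grey); no red point passed the threshold. Right, width in bp (log scale) of the strongest peak in control (open circles) and C220 libraries (triangles) at the 14 CLBL-1-only regions that passed for width, 9 wider and 5 narrower, named by chromosome.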

How the data were processed

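The 10 ATAC-seq libraries are of the lines CLBL-1 and 17-71. The authors aligned reads to CanFam3.1, the dog genome, with Bowtie2 2.2.4, and MACS2 was run on each library by itself for broad peaks at a p-value limit of 1e-05; a MACS2 version and an input control were not given in the sources read. Per peak, the deposited lists hold a position, a fold enrichment (a ratio of pileup to background), −log10 values of p and q, and a score that MACS2 derives for display, which was not used; 0 other columns of per-sample values exist. Coordinates are 1-based, in CanFam3.1.

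Peaks were merged in Python 3.11.15 with pandas 2.3.3 (identical to bedtools 2.31.1). A library's value in a region was that of its peak of largest −log10 p. C220 and control were compared with limma 3.58.1 in R 4.3.3 (trend on) on log2 values without a pseudocount. The merging and the fit were tested on simulated data. The threshold follows the 10% false discovery rate of the study's methods. Regions named were the 5 strongest by weakest −log10 p, by median fold and by width, the 3 per direction of smallest limma p, the fullest stretches and windows, and those next to the rule's border; genes were those paired with a CLBL-1-only region, beside genes of the marker lists and of the fullest windows. The regions of each group of 4 and the chromosomes were chosen after their values were seen. Regions and gene lists were chosen with earlier results of these data known. Libraries b5 and c1 of the study were not analysed here. The study's methods state that outlier samples were removed after a Spearman correlation of read counts, and the text read does not name them. The agreement between libraries given above is therefore that of a screened set.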

Additional observations from a re-analysis of the deposited data

How the results depend on the processing

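The count of CLBL-1-only regions, 4019 as reported, was 2361 with a −log10 p of at least 10 required of every peak, 2464 with a fold enrichment of at least 4 and 8132 from the C220 libraries alone; the other settings without a left-out library gave 3933 to 4876, and leaving out 1 library gave 4049 to 5019. For fold enrichment, 0 CLBL-1-only regions passed the threshold under every alternative fitted. For width, 14 passed as reported, 5 did at an adjusted p under 0.05 and 6 with a −log10 p of at least 10 in every CLBL-1 library, and leaving out 1 library gave 0 to 44 (44 without C2, 26 without C3, 2 without C4, 0 without C5), where the fits without C2 or C3 rest on a single control library. The total width of a library's peaks, an alternative chosen after seeing the data, gave 10. With each CLBL-1 library left out in turn, the log2 difference in width kept its sign in all 14 regions. Every C220 width there was above both controls or below both, so leaving out a library could not turn the sign. No conclusion on the direction is drawn from this. The median log2 difference in fold enrichment was -0.0122 to -0.0003 with a library left out and took either sign under other scalings (0.0028 after quantile normalization), beside a spread of the 5 library medians of 0.011 (SD), which the value without C6 (-0.0122) exceeded. The cause of these shifts was not tested. Counts of sequence motifs and distances to gene starts were not run, because no genome sequence or gene annotation of the files' build was loaded here. No paired analysis was possible because the labels number the CLBL-1 libraries through both treatments (C2 and C3, then C4 to C6), so that no number is shared, and replicate numbers were given in accession order. Read depth is unknown, so the absence of a call limits what can be said of 17-71 at these sites. Its shortest lists were those of B4 and B6, and the rule required that B1, B2 and B3 had no call either.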
